A study of Homo sapiens with 12 samples.

Results

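The phosphofructokinase step of glycolysis was followed across 12 RNA libraries of 2 human hepatocellular carcinoma cell lines through 9 genes, chosen by name. These were the 3 isoform genes of phosphofructokinase 1 (PFK-1), PFKL, PFKM and PFKP, the 4 PFKFB genes, FBP1 and TIGAR, 9 of the 22963 gene names in the expression table. All 9 names had a row. Expression was given as FPKM, fragments per kilobase of transcript relative to all mapped fragments, so that levels of different genes can be compared per length.

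PLC/PRF5 cells carried either the empty vector (3 libraries) or an EGR1 overexpression construct (3 libraries). In the study's methods the EGR1 coding sequence was placed behind the CMV promoter of a lentiviral plasmid that also encodes copGFP and puromycin resistance. MHCC97H cells were either parental, described in the labels also as mock with a WT genotype (3 libraries), or labelled EGR1 knockout, abbreviated EGR1_KO (3 libraries). Knockout lines were made in that study with a lentiviral CRISPR plasmid and taken from single clones, and which clone was sequenced is not given in the sources used here, so clone and genotype cannot be told apart. No vector is named for the parental cells. Both lines were grown in DMEM with serum, mRNA was selected with oligo(dT) beads, and libraries went through duplex-specific nuclease, an enzyme that removes abundant double-stranded cDNA. Ranks, shares and sums across genes below are therefore those of the deposited FPKM and may differ from the proportions in the cells. The labels number the 3 libraries of a group as biological replicates but do not say whether they came from separate cultures, so p-values measure the spread between these libraries, which may be technical.

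PFK-1 turns fructose 6-phosphate into fructose 1,6-bisphosphate and so commits glucose carbon to glycolysis. The active enzyme is a tetramer that can mix the liver (PFKL), muscle (PFKM) and platelet (PFKP) isoforms. Its strongest activator, fructose 2,6-bisphosphate, is made and degraded by the bifunctional PFKFB enzymes, also called PFK-2, among which PFKFB3 and PFKFB4 are known as hypoxia-inducible forms and PFKFB1 as the liver form. TIGAR, a phosphatase, degrades the same activator. FBP1, a gluconeogenic enzyme of hepatocytes, runs the PFK-1 step in reverse. EGR1 is a zinc finger transcription factor that binds GC-rich DNA.

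Sequence near the start sites is shown first, because the study examined EGR1 at the PFKL promoter by chromatin immunoprecipitation (ChIP). RefSeq promoter windows on GRCh38.p14, from 250 bases before to 50 bases after a start, were at hand for 8 of the 9 genes (19 windows), and PFKFB2 had no entry. The PFKL stretch below is the 250 bases before the RefSeq start, chr21:44299803-44300052 on the plus strand, 78% G or C, with GC boxes (GGGCGG on either strand, overlapping matches counted) in capitals. The P2 lines are the study's ChIP primers, each 5′ to 3′ and in capitals throughout because the whole primer is the matched part. The PFKP stretch, chr10:3104359-3104608 on the plus strand, comes before the most downstream of 4 PFKP starts, inside the gene and outside annotated exons. Its capitals mark the 9-letter EGR1 motif GCGTGGGCG. This stretch was printed because it holds the motif, and a link of these letters to expression was not tested.

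PFKL: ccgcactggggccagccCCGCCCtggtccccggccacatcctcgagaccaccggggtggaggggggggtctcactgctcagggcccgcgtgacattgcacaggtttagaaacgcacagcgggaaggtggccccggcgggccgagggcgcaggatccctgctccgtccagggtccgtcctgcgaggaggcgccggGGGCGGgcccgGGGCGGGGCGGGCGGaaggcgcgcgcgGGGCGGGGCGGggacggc

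P2 forward: GGTCCCCGGCCACATCCTC

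P2 reverse: ACCTTCCCGCTGTGCGTTTC

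PFKP: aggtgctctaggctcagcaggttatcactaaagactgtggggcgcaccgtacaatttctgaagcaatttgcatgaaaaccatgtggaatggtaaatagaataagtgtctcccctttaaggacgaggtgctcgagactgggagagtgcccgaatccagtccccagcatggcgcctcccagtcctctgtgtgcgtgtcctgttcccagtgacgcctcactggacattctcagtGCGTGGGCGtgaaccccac

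The P2 primers matched the PFKL window exactly, the forward primer at chr21:44299827-44299845 on the plus strand and the reverse primer at chr21:44299910-44299929 on the minus strand. They span 103 bases, from 226 to 124 bases before the start. Of the 7 GC boxes in the PFKL window, 0 lay inside this amplicon and 6 lay between it and the start. The P1 primer pair was not found in the window. Across 35116 windows in the table, 45.0% held at least 1 GC box, 0.795% held GCGTGGGCG and 5.07% held the related GCGGGGGCG, each searched on both strands. PFKFB4 had 5 GC boxes, FBP1 had 4, TIGAR had 3, and PFKFB1 had 0 in both of its windows. Windows of PFKFB3 held 6 and 2, those of PFKP up to 5, and those of PFKM up to 2. GCGTGGGCG occurred in 1 of the 19 windows, the PFKP window printed above, and GCGGGGGCG in 0. These are matches of letters in short windows and not binding sites. Only fixed words were searched, so a stretch without a match can still hold an EGR1 site. In the study, ChIP found EGR1 enriched at P2. There EGR1 also lowered the activity of a PFKL promoter luciferase reporter, but not of one mutated in P2.

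EGR1 itself was checked first. Its mean FPKM was 1.81 ± 0.33 (SD, n = 3) in vector cells and 52.9 ± 3.1 (SD, n = 3) with overexpression. It was 21.5 ± 1.5 (SD, n = 3) in parental MHCC97H cells and 39.5 ± 9.4 (SD, n = 3) in the libraries labelled EGR1_KO, so EGR1 mRNA was higher under the knockout label (log2 difference 0.83, SE 0.15, limma adjusted p = 0.00126). With the GC and length correction explained below, that difference was 0.42 (limma adjusted p = 0.0608, or 0.0139 when replicate numbers were also blocked). The study reports that its knockout clones were checked by western blot and DNA sequencing, and mRNA level does not measure EGR1 protein. The edited sequence was not analysed here, and MHCC97H directions below are directions between labels. Of 10 liver markers, 9 had a mean FPKM of at least 1 in both PLC/PRF5 groups, against 5 in parental MHCC97H cells, where ALB, APOA1, TTR, SERPINA1 and AFP were under 1, and 6 in the EGR1_KO libraries. Summed FPKM of 4 fibroblast and stellate markers was at most 0.421 and of 3 blood markers at most 1.82 in any library. Of 3 endothelial markers, PECAM1 reached a mean of 1 in each group and VWF and CDH5 in none. Sequencing depth is unknown, since FPKM carry no read number. In bulk RNA a lower level cannot be split into fewer cells with the transcript and less RNA per cell.

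The level of each gene in every library came before any test. PFKP was the most abundant of the 9 genes in each group, with means from 67.5 to 165 FPKM. In vector cells PFKFB3 (66.9 FPKM) and PFKL (62.1 FPKM) followed with overlapping ranges, and PFKM was at 31.4. In parental MHCC97H cells PFKP was followed by PFKM (28.1 FPKM) and PFKFB3 (27.7 FPKM), again overlapping, with PFKL below them at 21.5. PFKFB2 and TIGAR stayed between 2.24 and 6.76 FPKM in each of the 12 libraries. PFKFB4 covered 1.13 to 9.41 FPKM. PFKFB1 was at most 0.225 FPKM and was listed at 0 in 6 libraries, and FBP1 was listed at 0 in all 6 PLC/PRF5 libraries. The 20 housekeeping genes looked up had no value of 0 in any library, the lowest being 6.33 FPKM.

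**Figure D1:**
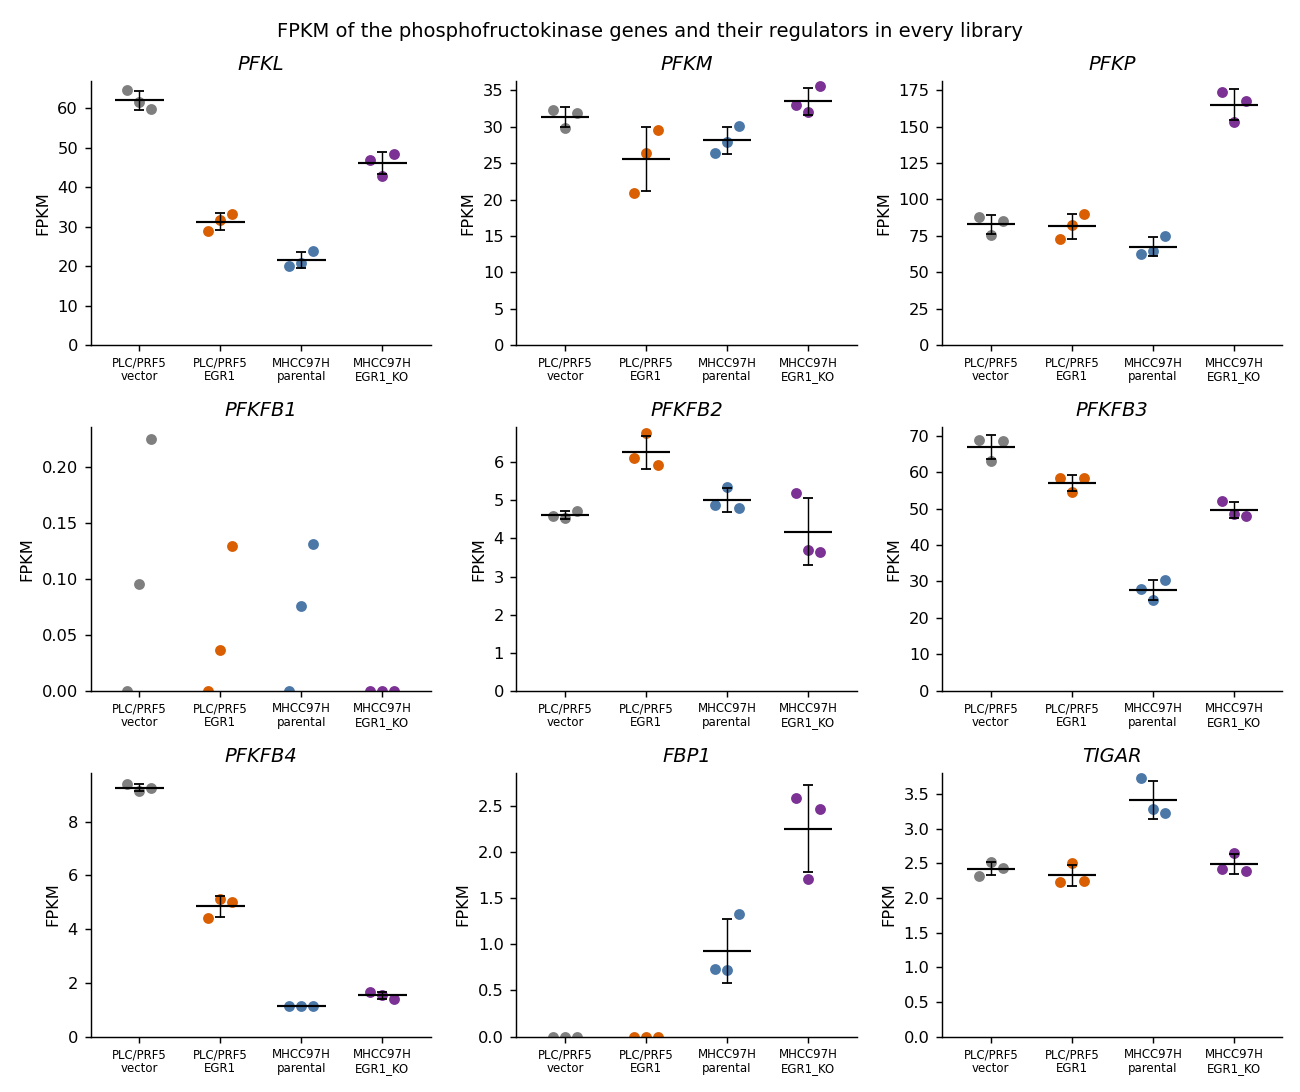
FPKM (vertical axes, linear from 0, a different scale in each panel) of the 9 genes in the 4 groups, with 1 point per library, a horizontal bar at the mean and an error bar of 1 SD (n = 3), left out where a library was listed at 0. PFKL was highest in PLC/PRF5 vector cells (59.9 to 64.6) and lowest in parental MHCC97H cells (20.0 to 23.8), and PFKP was highest in the EGR1_KO libraries (153 to 174).

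With EGR1 overexpression in PLC/PRF5 cells, PFKL fell 1.99-fold and PFKFB4 1.91-fold, while PFKP did not move beyond its spread. Of 7 members tested, 2 fell and 1 rose past an adjusted p of 0.05, and 4 did not pass. Over all 11671 genes tested in this comparison, 29.6% passed, 19.2% upward and 10.4% downward. Groups did not overlap for 5 of the 7 members, against 47.7% of all genes. Of all calls 64.8% were upward as deposited, and 46.0% after quantile normalization.

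PFKL, the liver isoform (GRCh38 chromosome 21, 44300051 to 44327376, plus strand), measured 64.6, 61.6 and 59.9 FPKM in vector replicates 1 to 3. With EGR1 it measured 29.0, 31.6 and 33.2 FPKM. The highest EGR1 library was well below the lowest vector library. The group mean was 1.99-fold lower, and the difference on the log2(FPKM + 1) scale was −0.97 (SE 0.085, 95% interval −1.16 to −0.78, limma adjusted p = 1.86e-04).

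PFKM, the muscle isoform (chromosome 12, 48105139 to 48146404, plus strand), measured 32.4, 29.8 and 32.0 FPKM in vector cells and 20.8, 26.4 and 29.5 FPKM with EGR1. Those groups did not overlap, but the gap between 29.5 and 29.8 was small, and the log2 difference of −0.30 (SE 0.12) did not pass (limma adjusted p = 0.0983). It was −0.16 without EGR1 replicate 1, the lowest library, and did not pass there either (limma adjusted p = 0.189). PFKM shares 628 exonic bases with SENP1 on the opposite strand, and strandedness of the libraries is not given in the sources used here. PFKP, the platelet isoform (chromosome 10, 3066333 to 3137712, plus strand), measured 88.0, 75.7 and 85.5 FPKM against 72.6, 82.1 and 89.8 FPKM. Its groups overlapped, and the log2 difference was −0.03 with a 95% interval of −0.27 to 0.21 (limma adjusted p = 0.847). That interval leaves out a fall of the size seen for PFKL.

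Among the PFKFB genes, PFKFB4 (chromosome 3, 48517684 to 48562015, minus strand) was at 9.41, 9.13 and 9.24 FPKM in vector cells and at 4.40, 5.13 and 5.00 FPKM with EGR1. Every EGR1 library lay below every vector library, the mean was 1.91-fold lower, and the log2 difference was −0.81 (SE 0.093, limma adjusted p = 6.63e-04). PFKFB2, an isoform known from heart (chromosome 1, 207034366 to 207081024, plus strand), rose from 4.59, 4.53 and 4.73 FPKM to 6.11, 6.76 and 5.92 FPKM, by 0.37 on the log2 scale (SE 0.093, limma adjusted p = 0.0178). This rise missed the threshold without EGR1 replicate 2 (0.32, limma adjusted p = 0.0878), after quantile normalization (0.21, limma adjusted p = 0.131) and after the GC and length correction explained below (0.17, limma adjusted p = 0.119). PFKFB2 shares 315 exonic bases with YOD1 on the other strand.

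PFKFB3, the isoform with the highest kinase activity (chromosome 10, 6144934 to 6254644, plus strand), went from 68.9, 63.1 and 68.7 FPKM to 58.3, 54.5 and 58.3 FPKM. The groups did not overlap, and the log2 difference of −0.23 (SE 0.082) did not pass (limma adjusted p = 0.0656), although it did without vector replicate 2 (−0.27, limma adjusted p = 0.0361). TIGAR (chromosome 12, 4307763 to 4354593, plus strand) measured 2.33, 2.51 and 2.43 FPKM against 2.24, 2.50 and 2.24 FPKM. Its groups overlapped, with a log2 difference of −0.04 and a 95% interval of −0.26 to 0.17 (limma adjusted p = 0.766). TIGAR shares 1711 exonic bases with AC008012.1 on the same strand, which the table lists at 0. PFKFB1, at 0, 0.0958 and 0.225 FPKM in vector cells and 0, 0.0367 and 0.130 FPKM with EGR1, was too low to be tested, and FBP1 was listed at 0.

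In PLC/PRF5 cells the share of PFKL among the isoforms was lower, and that of PFKP higher, in each EGR1 library than in any vector library. PFKL supplied 34.9, 36.9 and 33.8% of the summed PFKL, PFKM and PFKP FPKM in vector replicates and 23.7, 22.5 and 21.8% with EGR1. PFKP supplied 47.6, 45.3 and 48.2% against 59.3, 58.6 and 58.9%. The mean differences were −12.5 and 11.9 percentage points. PFKM kept overlapping shares, 17.8 ± 0.26% and 18.4 ± 1.2% (SD, n = 3 each). The summed level was 177 ± 9.0 FPKM in vector cells and 138 ± 15 FPKM with EGR1 (SD, n = 3 each), a log2 difference of −0.36 with no overlap. With 3 libraries against 3 an exact permutation test, 2-sided, cannot go below 0.1, and this value was reached for the PFKL share, the PFKP share and the sum (Benjamini-Hochberg adjusted p = 0.139 over 25 such tests).

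In the MHCC97H libraries labelled EGR1_KO, where EGR1 mRNA was the higher, PFKP and PFKL were both more than doubled as deposited and PFKFB3 was 1.79-fold higher. With the GC and length correction explained below, the log2 differences of these 3 genes still passed but were smaller, 0.77 against 1.28 for PFKP, 0.51 against 1.07 for PFKL and 0.43 against 0.82 for PFKFB3. Of 7 members with a mean of at least 1 FPKM in both groups, 4 rose, 1 fell and 2 did not pass. Over all 11577 genes 66.3% passed, 34.8% upward and 31.5% downward, and the groups of 6 of the 7 members did not overlap against 71.8% of all genes. Upward calls made up 52.5% of all calls as deposited and 41.6% with libraries scaled to the same total, a scaling that moved the median of all genes from 0.02 to −0.11 on the log2 scale. With passing this common, a call alone says little about any member, and sizes carry more.

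PFKP measured 62.8, 64.7 and 75.0 FPKM in parental replicates and 174, 153 and 168 FPKM under the EGR1_KO label. The ranges were far apart, with a 2.44-fold higher mean and a log2 difference of 1.28 (SE 0.097, limma adjusted p = 2.70e-05). PFKL measured 20.0, 20.8 and 23.8 FPKM against 46.9, 42.9 and 48.5 FPKM. It was 2.14-fold higher with no overlap, a log2 difference of 1.07 (SE 0.096, limma adjusted p = 4.68e-05). PFKM measured 26.4, 27.9 and 30.1 FPKM against 33.0, 32.0 and 35.6 FPKM. Its rise of 0.24 (SE 0.089, limma adjusted p = 0.0356) was small, and it missed the threshold when parental replicate 1 (0.20) or 2 (0.24) or EGR1_KO replicate 1 (0.25) or 3 (0.20) was left out, with equal library totals (0.10) and with quantile normalization (0.07).

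PFKFB3 rose from 27.9, 24.9 and 30.4 FPKM to 52.1, 48.5 and 48.0 FPKM, a log2 difference of 0.82 (SE 0.095, limma adjusted p = 1.35e-04), with no overlap. PFKFB4 stayed low, at 1.14, 1.14 and 1.13 FPKM against 1.65, 1.53 and 1.41 FPKM, and its log2 difference of 0.24 (SE 0.11) did not pass (limma adjusted p = 0.0668). PFKFB2 had overlapping groups, 4.87, 5.36 and 4.79 FPKM against 5.19, 3.69 and 3.64 FPKM (−0.23, SE 0.13, limma adjusted p = 0.157), and passed only without EGR1_KO replicate 1 (−0.36, limma adjusted p = 0.0246).

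The 2 genes that oppose PFK-1 activity were both low in MHCC97H, at most 2.58 FPKM for FBP1 and 3.73 FPKM for TIGAR. FBP1 (chromosome 9, 94603133 to 94640249, minus strand) measured 0.733, 0.719 and 1.33 FPKM in parental cells and 2.58, 1.71 and 2.46 FPKM under the EGR1_KO label. It was 2.42-fold higher with no overlap, with a log2 difference of 0.76 (SE 0.16). It cleared the filter on low values (a mean FPKM of 1) only through the EGR1_KO libraries, so it had to differ, and it is described here without a test and left out of the counts above. With a pseudocount of 0.1 instead of 1 its log2 difference was 1.22. FBP1 shares 283 exonic bases with PCAT7 on the opposite strand. TIGAR was lower, at 2.41, 2.66 and 2.40 FPKM against 3.73, 3.29 and 3.23 FPKM in parental cells (−0.34, SE 0.11, limma adjusted p = 0.0186). This call was lost without parental replicate 1 (−0.29, limma adjusted p = 0.0727) or 2 (−0.36, limma adjusted p = 0.0510) and after quantile normalization (−0.22, limma adjusted p = 0.0806). PFKFB1 (chromosome X, 54932961 to 54998534, minus strand) was listed at 0 in all 3 EGR1_KO libraries and at 0, 0.0755 and 0.131 FPKM in parental ones.

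The PFKL share of the summed isoforms hardly differed between the MHCC97H groups although its level was more than doubled. It was 18.3, 18.3 and 18.5% in parental replicates and 18.5, 18.8 and 19.2% under the EGR1_KO label, separated by a mean of 0.48 percentage points. The PFKP share was 57.5, 57.1 and 58.2% against 68.5, 67.2 and 66.6%. The PFKM share was 24.2, 24.6 and 23.4% against 13.0, 14.02 and 14.1%. The sum of the 3 isoforms was 117 ± 10 and 245 ± 14 FPKM (SD, n = 3 each), a log2 difference of 1.06. For each of these 4 quantities the groups did not overlap, and the exact 2-sided permutation p was 0.1, the smallest possible (adjusted p = 0.139). The ratio of this sum to FBP1 was 134 ± 33 in parental cells and 112 ± 19 under the EGR1_KO label, overlapping, with an exact permutation p of 0.4.

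**Figure D2:**
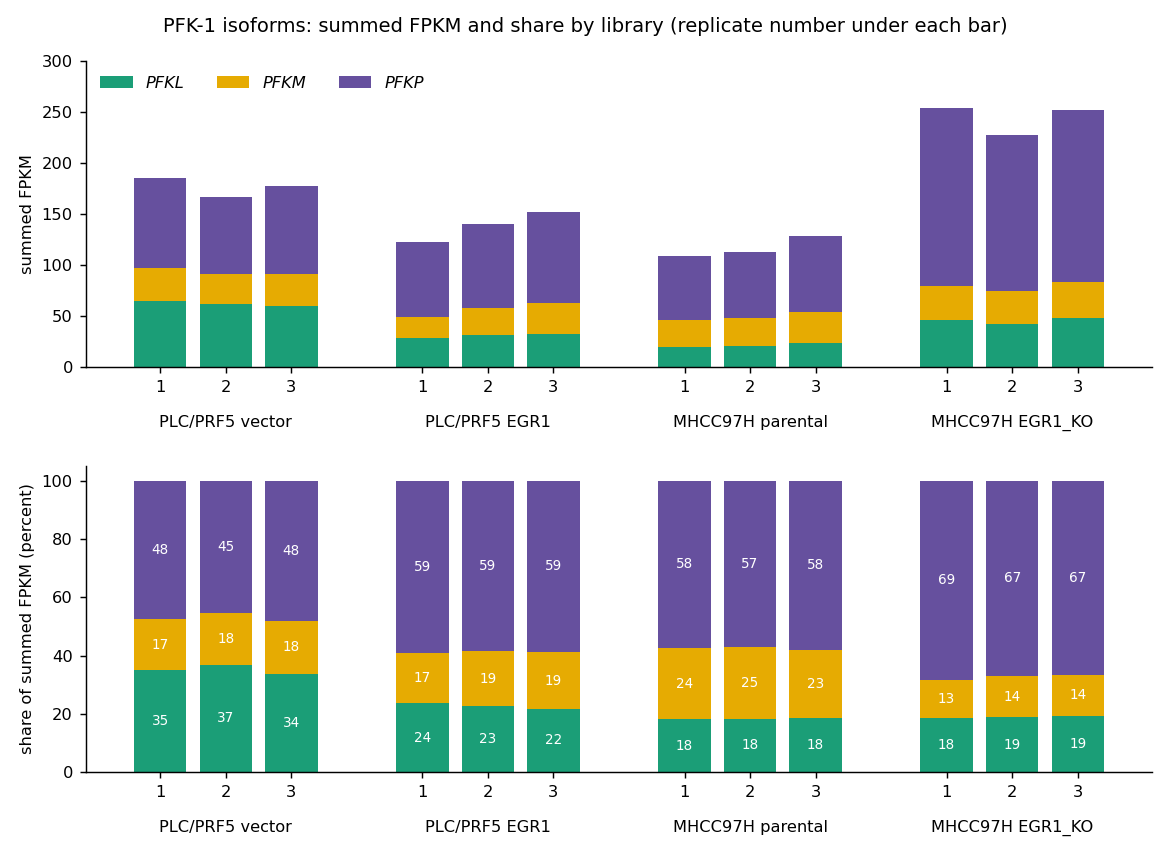
Summed FPKM of PFKL, PFKM and PFKP (upper panel) and the percent of that sum from each isoform (lower panel), 1 bar per library, with replicate numbers below the bars. The PFKL share was 33.8 to 36.9% in PLC/PRF5 vector cells and 18.3 to 23.7% in the 9 other libraries, and the sum was highest in the EGR1_KO libraries (228 to 254 FPKM).

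Within the PFKFB sum, PFKFB3 supplied at least 79.1% in any library. In PLC/PRF5 cells the PFKFB4 share was 11.5 ± 0.37% with vector and 7.11 ± 0.67% with EGR1, and the PFKFB2 share 5.71 ± 0.18% and 9.20 ± 0.87% (SD, n = 3 each). In MHCC97H cells the PFKFB2 share was 14.8 ± 2.0% in parental and 7.51 ± 1.1% in EGR1_KO libraries, where PFKFB3 reached 89.7 ± 1.1% (SD, n = 3 each). None of these pairs overlapped (exact permutation p = 0.1 each, adjusted p = 0.139).

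GC content of transcripts moved with the labels and was measured beside these results. A trend of each library's deviations on GC content and transcript length accounted for 47.8% of their variance in MHCC97H and 20.8% in PLC/PRF5. In MHCC97H the slope per 10 percentage points of GC was −0.25 ± 0.11 in parental and 0.25 ± 0.093 in EGR1_KO libraries (SD, n = 3 each), and PFKL has the most GC-rich transcript of the members (64.1%), with PFKP at 57.5% and PFKFB3 at 55.7%. After removal of that trend, which also removes biological change that follows GC, the limma adjusted p of the smaller MHCC97H differences given above was 3.70e-04 for PFKL, 6.16e-05 for PFKP and 0.00206 for PFKFB3. PFKM (0.03) and TIGAR (−0.13) no longer passed, the FBP1 difference was 0.34, and PFKFB4 turned to −0.21 without passing. In PLC/PRF5 cells PFKL (−0.91) and PFKFB4 (−0.79) were little altered.

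**Figure D3:**
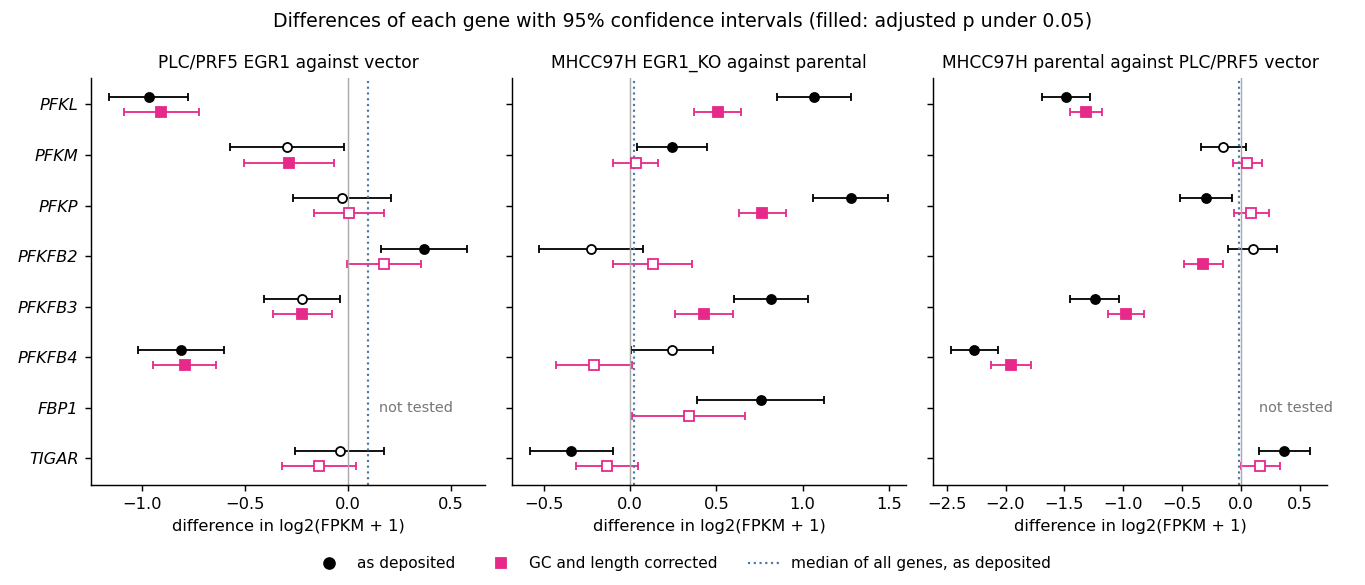
Differences in log2(FPKM + 1) with 95% confidence intervals (horizontal axes) for the tested genes in 3 comparisons, from values as deposited (black circles) and after the GC and length correction (pink squares), filled where the limma adjusted p was under 0.05. The dotted line is the median of all genes as deposited. FBP1 in MHCC97H cleared the filter through 1 group only, so its fill is not read as a test. PFKL was lower with EGR1 in PLC/PRF5 (−0.97, corrected −0.91) and higher in the MHCC97H libraries labelled EGR1_KO (1.07, corrected 0.51).

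PFKFB4, PFKL and PFKFB3 were far lower in parental MHCC97H than in PLC/PRF5 vector cells. These control groups are the same libraries used above. Of 7 members tested between parental MHCC97H and PLC/PRF5 vector cells, 4 were lower and 1 was higher in MHCC97H, where 79.8% of 12046 genes passed, 38.8% upward and 40.9% downward. Ranges did not overlap for 6 members, against 81.0% of all genes. Cell line and vector cannot be told apart in this contrast. PFKFB4 was 8.15-fold lower in MHCC97H (−2.26, SE 0.086, limma adjusted p = 4.26e-08). PFKL was 2.88-fold lower (−1.49, SE 0.088, limma adjusted p = 6.33e-07) and PFKFB3 2.41-fold lower (−1.24, SE 0.092, limma adjusted p = 2.71e-06).

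TIGAR was 1.41-fold higher in MHCC97H (0.37, SE 0.093, limma adjusted p = 0.00580), but not past the threshold with the GC and length correction (0.16). FBP1 was listed at 0 in vector cells and at 0.719 to 1.33 FPKM in parental MHCC97H, so no fold is given. PFKP passed as lower (−0.30, SE 0.096, limma adjusted p = 0.0190), yet it missed the threshold with libraries scaled to the same total (−0.19) and without parental replicate 1 (−0.25) or 2 (−0.27) or vector replicate 1 (−0.25) or 3 (−0.27), and the correction turned it to 0.08. PFKM (−0.15, limma adjusted p = 0.120) and PFKFB2 (0.10, limma adjusted p = 0.353) did not pass, although PFKFB2 passed as lower after the correction (−0.32, limma adjusted p = 0.00302). The PFKL share was 16.8 percentage points lower in MHCC97H and the PFKP share 10.6 points higher, with an exact permutation p of 0.1 for both. Parental MHCC97H and PLC/PRF5 EGR1 cells thus stood close in PFKP share, 57.6 ± 0.56% and 58.9 ± 0.35% (SD, n = 3 each), though without overlap. They stood further apart in PFKL share (means 18.4 and 22.7%) and PFKM share (means 24.05 and 18.4%).

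Ordered by mean, PFKL ran from PLC/PRF5 vector (62.1 FPKM) to MHCC97H EGR1_KO (46.1), PLC/PRF5 EGR1 (31.2) and parental MHCC97H (21.5), with no overlap between neighbours. PFKFB3 and PFKFB4 had another order, vector, PLC/PRF5 EGR1, EGR1_KO and parental, also without overlap. For PFKM each pair of neighbours overlapped. For PFKP only the EGR1_KO libraries stood clear of the next group, and for TIGAR only the parental MHCC97H ones. PFKFB2 ran from PLC/PRF5 EGR1 to parental and vector without overlap, and vector and EGR1_KO overlapped. FBP1 ran from EGR1_KO to parental, also without overlap. The genes most like PFKL over the 12 libraries, by mean absolute difference of centred log2(FPKM + 1) among 11448 named genes, were ALDOA (0.102), GPRC5C (0.120), MSRB2 (0.130), NR2F6 (0.134) and ZDHHC12 (0.139). ALDOA, the aldolase that splits the product of PFK-1, is the neighbouring step of the pathway, and its means were 1436 FPKM in vector, 807 with EGR1, 622 in parental and 1130 in EGR1_KO libraries. The nearest gene was RAB5B for PFKM (0.0563), MAF1 for PFKP (0.0985) and NCLN for PFKFB3 (0.0688). It was KIF3B for PFKFB2 (0.0724), SLC45A3 for PFKFB4 (0.0797) and UTP6 for TIGAR (0.0320). Libraries of a group share their cells, so these likenesses are descriptions.

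The other glycolysis genes set the members in their pathway. Of 21 listed enzymes 14 were tested in PLC/PRF5 cells, where 9 fell, 1 rose and 4 did not pass. Over all genes 29.6% passed, 19.2% upward and 10.4% downward. The list had a median log2 difference of −0.39 against 0.09 for all genes. ALDOC (−0.96, limma adjusted p = 3.86e-04) and ALDOA (−0.83, limma adjusted p = 0.00111) fell most, both aldolases, and the fall of PFKL (−0.97) was of the same size. HKDC1, a hexokinase-like enzyme, rose (0.39, limma adjusted p = 0.0194). The 10 calls were 6 without vector replicate 1 and 5 without vector replicate 3, EGR1 replicate 2 or EGR1 replicate 3. The GC and length correction and equal library totals each gave 12 lower and 1 higher, where 33.8% and 28.0% of all genes passed. Quantile normalization gave 9 lower and 0 higher, where 28.0% of all genes passed. In MHCC97H 15 were tested, and 9 were higher and 1 lower under the EGR1_KO label, where 66.3% of all genes passed. The median was 0.34 against 0.02. With the GC and length correction 6 were higher and 2 lower, with a median of 0.07, where 47.5% of all genes passed. TPI1, the triose phosphate isomerase (1.16, limma adjusted p = 1.10e-04), and PKM, the pyruvate kinase (1.00, limma adjusted p = 1.38e-04), led, and stayed higher with the correction (0.56 and 0.68). LDHA, which makes lactate, was lower (−0.37, limma adjusted p = 0.0104), a call lost with the correction (−0.21, limma adjusted p = 0.0875), where ALDOC (−0.48) and PGAM1 (−0.52) were the 2 lower enzymes. The log2 difference of PFKP (1.28) was above each of them. Between the lines 13 had a mean of at least 1 FPKM in both groups, 3 higher and 10 lower in MHCC97H, where 79.8% of all genes passed. ALDOC (−2.46) was among the lower ones. With the GC and length correction the calls of PKM (−0.0047, limma adjusted p = 0.947) and GPI (−0.09, limma adjusted p = 0.227) were lost. LDHB, ENO2 and HK2 cleared the filter only through the line where they were high and so had to differ. LDHB averaged 0.138 FPKM in vector and 630 in parental MHCC97H cells, ENO2 0.0106 and 14.3, and HK2 6.64 and 0.0607.

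Enzymes passing in both EGR1 comparisons were 6. Of all genes tested, 29.6% passed in PLC/PRF5 and 66.3% in MHCC97H. The share of all genes passing in both, in the same or opposite directions, was not taken, so these 6 are a description. HK1 (−0.36 in PLC/PRF5 and 0.67 in MHCC97H), GPI (−0.31 and 0.34), ALDOA (−0.83 and 0.86) and TPI1 (−0.42 and 1.16) were, like PFKL, lower with EGR1 overexpression and higher under the EGR1_KO label. HKDC1 was higher in both (0.39 and 0.31) and LDHA lower in both (−0.68 and −0.37). With the GC and length correction the MHCC97H calls of GPI (0.07, limma adjusted p = 0.354), HKDC1 (0.01, limma adjusted p = 0.877) and LDHA were lost, and those of HK1 (0.39), ALDOA (0.46) and TPI1 (0.56) passed at smaller sizes. PFKP was not of this kind, being called in MHCC97H alone, and whether its 2 differences differ from each other was not tested.

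**Figure D4:**
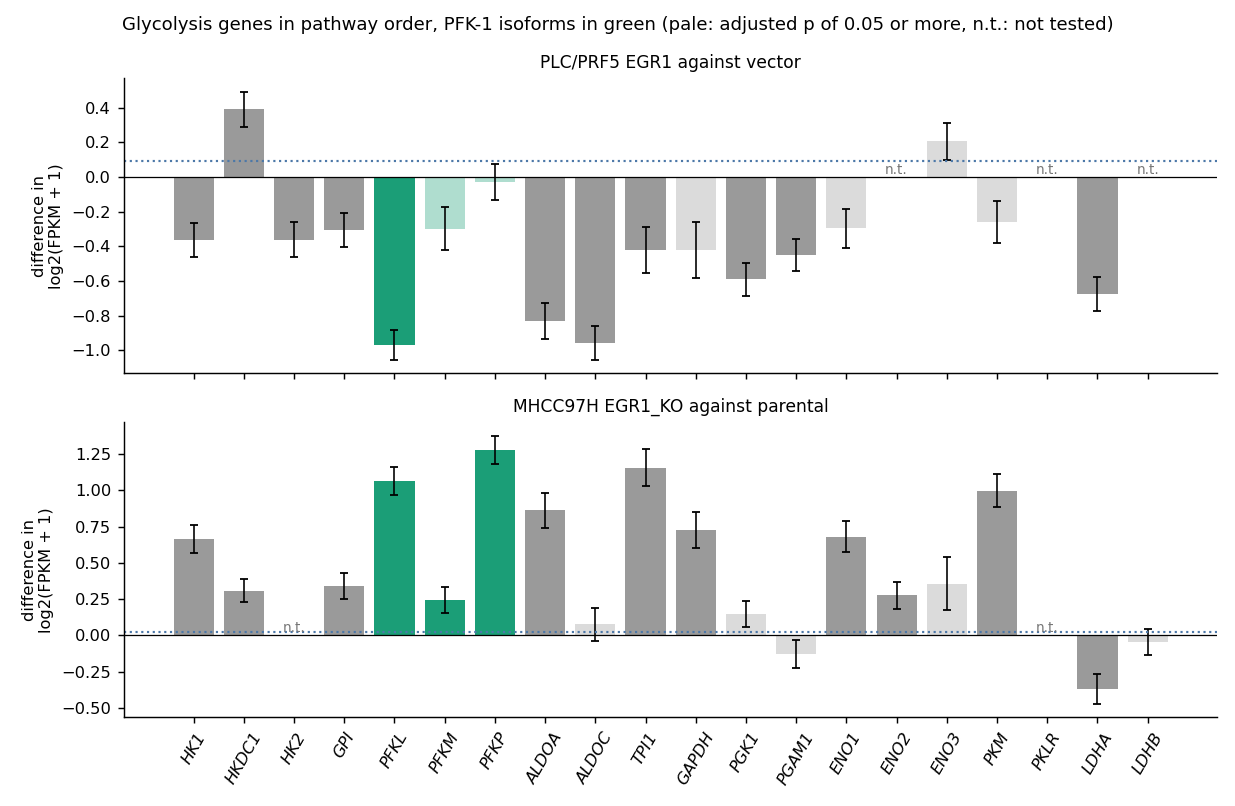
Differences in log2(FPKM + 1) (vertical axes) with SE bars for glycolysis genes in pathway order, PFK-1 isoforms in green and other enzymes in grey, pale where the limma adjusted p was 0.05 or more and n.t. where a gene was not tested. Above, EGR1 against vector in PLC/PRF5, with PFKL at −0.97 and PFKP at −0.03. Below, EGR1_KO against parental in MHCC97H, with PFKP at 1.28 and PFKL at 1.07. The dotted line is the median of all genes.

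Genes that control PFK-2 or sense energy were read from a list of 17, made of AMPK subunits, the AMPK kinase STK11, protein kinase A, AKT and PP2A genes, and transcription factors such as HIF1A and EPAS1. In PLC/PRF5 cells 2 of 16 tested rose and 1 fell, where 29.6% of all genes passed. The 2 that rose were HIF1A (0.50, limma adjusted p = 0.00796) and the AMPK subunit PRKAA2 (0.35, limma adjusted p = 0.0483). Both calls were lost with the GC and length correction, where HIF1A was at 0.13 (limma adjusted p = 0.176) and PRKAA2 turned to −0.18 (limma adjusted p = 0.131). That correction gave 0 higher and 3 lower, where 33.8% of all genes passed. The list median was 0.04 against 0.09 for all genes. HIF1A is known as an inducer of PFKFB3 and PFKFB4 transcription in hypoxia. In MHCC97H 6 rose and 7 fell of 16 (median −0.13 against 0.02), where 66.3% of all genes passed. STK11 (1.29, limma adjusted p = 3.34e-05) and EPAS1 (1.15, limma adjusted p = 2.81e-05) rose most, and HIF1A (−1.46, limma adjusted p = 9.10e-05) and PRKAA2 (−1.24, limma adjusted p = 2.31e-04) fell most. With the correction these 4 still passed, at 0.65, 0.93, −0.82 and −0.42. It gave 5 higher and 7 lower in MHCC97H, where 47.5% of all genes passed. Between lines 9 of 16 were higher and 6 lower in MHCC97H, where 79.8% of all genes passed. HIF1A (2.17) and PRKAB2 (1.03) were highest and EPAS1 (−2.69) and PRKACA (−0.86) lowest. The correction left 6 higher and 7 lower between lines, with PRKAB2 at 0.62 and PRKACA at −0.55, where 80.9% of all genes passed. These are mRNA levels, and kinase activity was not measured.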

How the data were processed

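RNA sequencing data of 12 libraries (4 groups of 3) were analysed. The authors deposited FPKM for 22963 gene names, of which 3031 are names of assembled loci. Per the labels StringTie and hg38 were used, and versions, aligner and annotation are not given in the sources used here. All columns were used as deposited. FPKM carry no read number, so depth and counting error are unknown, and a value of 0 cannot be given a detection limit.

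Values were transformed to log2(FPKM + 1). Each comparison was fitted on its own 6 libraries with limma 3.58.1 (trend, R 4.3.3), keeping genes whose FPKM averaged 1 or more, 2-sided, with Benjamini-Hochberg adjustment over all tested genes and a threshold of 0.05. Fold changes on this scale understate low genes. Shares, sums and ratios were compared by exact 2-sided permutation. The ratio to FBP1 was limited to MHCC97H, since FBP1 was listed at 0 in PLC/PRF5.

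Alternatives were a pseudocount of 0.1, no filter beyond 1 value above 0, equal library totals, quantile normalization, no trend, a joint fit of the 12 libraries, a replicate block, leaving out each library, stricter thresholds, and a GC and length correction. That correction took out of a library's deviations what splines (5 degrees of freedom per property) could predict. GC content and length came from GENCODE release 29 (GRCh38) for 97.6% of names other than assembled loci. Scripts were tested on simulated data. Promoters came from RefSeq (GRCh38.p14). Python 3.11.15, scipy 1.17.1 and matplotlib 3.10.9 were used.

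The members and gene lists were chosen with earlier results of these data known. Genes named were the 9 members, EGR1, list genes past the threshold in both EGR1 comparisons, up to 2 largest rises and falls per list and comparison, the 5 genes most like PFKL and the nearest gene of the other tested members. The values of 1 list gene are not reported here.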

Additional observations from a re-analysis of the deposited data

How the results depend on the processing

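Of 22 member differences fitted, including that of FBP1, which is not read as a test, 9 kept both direction and call under all 15 alternative fits. These were PFKL in the 3 comparisons (−1.01 to −0.91 in PLC/PRF5, 0.51 to 1.14 in MHCC97H and −1.56 to −1.31 between the lines), PFKFB4 and TIGAR in PLC/PRF5 (the TIGAR difference never passing), PFKP and PFKFB3 in MHCC97H, and PFKFB3 and PFKFB4 between the lines. For the others the cause was not tested. The stricter thresholds were applied to counts of genes only and are not among these fits. On the log2(FPKM + 1) scale PFKL (−0.97) and PFKFB4 (−0.81) in PLC/PRF5 and PFKFB3 (0.82) in MHCC97H differed by less than 2-fold.

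In PLC/PRF5, PFKM passed with equal library totals (−0.33) and with the GC and length correction (−0.29, the same with the replicate block), and PFKFB3 with the correction (−0.22, with and without the block). PFKFB2 no longer passed with quantile normalization (0.21) or the correction (0.17, with and without the block). The PFKP difference, never past the threshold, turned to 0.0081 with quantile normalization and 0.0041 with the correction, blocked or not. Leaving out 1 library gave −0.10 to 0.050 for PFKP, 0.32 to 0.40 for PFKFB2, −0.27 to −0.19 for PFKFB3 and −0.40 (without EGR1 replicate 3) to −0.16 (without EGR1 replicate 1) for PFKM, which passed in none of these fits.

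In MHCC97H, PFKM no longer passed with equal totals (0.10), quantile normalization (0.068), no trend (0.24), the joint fit of 12 libraries (0.24) or the correction (0.033, with and without the block). TIGAR missed the threshold with the correction (−0.13), blocked or not, and with quantile normalization (−0.22). FBP1, above the filter through 1 group only and so not read as a test, was at 0.34 with the correction, blocked or not. PFKFB4 passed without the filter on low values, without the trend and in the joint fit (0.24 in each) and with quantile normalization (0.37), and turned to −0.21 with the correction, blocked or not. PFKFB2 turned to 0.13 with it, in both fits. Leaving out 1 library gave 0.20 to 0.29 for PFKM, −0.36 to −0.16 for PFKFB2 and −0.37 to −0.29 for TIGAR.

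Between the lines, PFKP was lost with equal totals (−0.19) and quantile normalization (−0.019) and turned to 0.083 with the correction, and PFKM turned to 0.0058 with quantile normalization and 0.051 with the correction. PFKFB2 turned to −0.32 and TIGAR dropped to 0.16 with the correction. Each corrected value was the same with the block. Leaving out 1 library gave −0.37 to −0.25 for PFKP.

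Of the shares, sums and ratios, some small differences changed sign. With quantile normalization the PFKM share in PLC/PRF5 came to −0.0045 percentage points, the PFKFB4 share in MHCC97H to 0.20 and the PFKFB3 share between the lines to 1.88. With the correction the latter was 2.43, the PFKL share in MHCC97H was −0.84 and the log2 ratio to FBP1 was 0.019. Leaving out 1 library gave −2.0 to 0.13 for the PFKFB3 share between the lines, and for the PFKFB1 share −0.12 to 0.019 in PLC/PRF5 and −0.012 to 0.17 between the lines.

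Counts of genes called moved with the threshold, with the GC and length correction and with single libraries left out. With the correction MHCC97H had 5133 calls among 10806 genes (47.5%), against 7671 among 11577 (66.3%) as deposited. At an adjusted p of 0.01 the PLC/PRF5 comparison kept 1468 of 3457 genes, 5 of 10 other glycolysis genes and 1 of 3 regulators. With a change of at least 2-fold it kept 206, 0 and 0, MHCC97H kept 1029 of 7671 genes, 1 of 10 and 4 of 13, and the lines differed by 4431 of 9607 genes, 10 of 16 and 3 of 15. In PLC/PRF5 leaving out 1 library gave 1944 (without EGR1 replicate 2) to 4007 genes, with 2240 without vector replicate 3 and 2213 without EGR1 replicate 3, and 5 to 9 other glycolysis genes.

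The replicate numbers gave no steady pairing of libraries in PLC/PRF5 or between the lines. Deviations of same-numbered libraries correlated, across genes, at −0.13, 0.14 and −0.08 in PLC/PRF5, at 0.03, 0.03 and 0.47 in MHCC97H and at −0.39, −0.01 and −0.05 between the lines. Pairs with other numbers averaged 0.01, −0.09 and 0.08 in these comparisons, so each same-numbered MHCC97H pair lay above that mean. With the replicate block alone 3253, 7987 and 9249 genes were called in these comparisons, and it changed no call of a member. Depth is unknown, so values near 0, those of PFKFB1 and FBP1 above all, carry an error that could not be given.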
